A study of Danio rerio with 8 samples.

Results

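Liver RNA of zebrafish kept in water from site H3 of the Hun River was set against liver RNA of control fish. The comparison rests on 2 of the 8 arrays of the series, 1 array for H3 and 1 for the control, each hybridized with RNA pooled from the livers of 5 fish. Its members are the 24074 probes, of 43603 on the array design, that were well above background on both arrays by the scanner software and carried no outlier mark on either. Through the RefSeq accession of the probe, 16348 of these probes had a gene symbol and represented 9313 genes, of the 13443 genes the design covers by symbol. Of the other probes, 3195 were well above background on the control array only, 1606 on the H3 array only, 14495 on neither, and 233 carried a mark and were left out.

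Both pools came from wild-type male adults of 3 months that were held for 96 h without water renewal, in filtered river water for H3 and in aerated tap water passed through activated carbon for the control. H3 lies on the mainstream, upstream of Shenyang City. By the study's field measurements, its water held the least dissolved oxygen of the 7 sites and more ammonia nitrogen than every site but H4, while the methods state that oxygen was checked to lie above a set minimum before the fish were exposed. A second set of arrays that the study describes was not analysed here. With 1 array on each side there was no replicate, so no p-value is given, and a probe or gene is called higher or lower where the 2 arrays differed at least 2 fold. A pool of whole livers averages its fish, and fewer cells of a type cannot be told apart from less RNA per cell.

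The liver of the zebrafish, as in mammals, is made mainly of hepatocytes, which secrete the proteins of the blood plasma, store and release glucose and fat, and detoxify foreign compounds. When cells meet growth factors, cytokines or stress, a first wave of genes is transcribed within minutes and without new protein synthesis. These immediate early genes include the leucine zipper proteins of the AP-1 family (Jun, Fos and their relatives), the EGR zinc finger proteins, and proteins that shut the signal down again, such as phosphatases and SOCS proteins. Misfolded proteins in the cytosol call up chaperones of the HSP70 family through heat shock factors. When stress holds back protein synthesis, ATF4 is still made, and the phosphatase subunit PPP1R15A helps to restore synthesis.

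Values below are normalized signals, the scanner's background-subtracted intensity after quantile normalization over the 8 arrays, and differences are log2 of H3 minus log2 of control. Levels are compared within a gene only, because probes of different genes bind with different strength. Where a gene had several member probes, its difference is the mean over them and is given ± SD over the probes. A gene with 1 probe is given ± the error computed by the scanner software. Both errors cover a single array pair and not the variation between fish. Repeated spots of one probe had a median coefficient of variation of 6.04% on the control array and 7.95% on the H3 array (22 probes each), and the median SD over the probes of a gene was 0.24 (4626 genes with more than 1 member probe). The control lay on a different slide from H3, so that slide and site cannot be told apart for this pair. Values against the other 3 arrays of the H3 slide (H4, H5 and X) are given for some genes and lists only. Of 201 called named genes measured in that comparison, 155 stayed past 2 fold against those arrays.

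In all, 3606 of the 24074 member probes differed at least 2 fold (15%), of which 1974 were higher at H3 (8.20%) and 1632 lower (6.78%). The large differences leaned the other way. At 4 fold or more, 296 probes were higher (1.23%) and 510 lower (2.12%). At 8 fold or more, 66 probes were higher (0.274%) and 219 lower (0.910%), and at 16 fold or more 22 were higher (0.0914%) and 122 lower (0.507%). Of the 9313 genes, 638 were higher (6.85%) and 629 lower (6.75%), which makes 1267 genes or 13.6%. These are the shares to set beside the counts of each gene list below. The median difference of all measured genes was 0.11, and the genes between the lower and the upper quartile lay between -0.22 and 0.45. Of 531 called genes with more than 1 member probe, 519 had all probes on the same side of 0 and 334 had all of them past 2 fold in that direction. H3 was the highest of the 8 arrays for 1565 genes (16.8%) and the lowest for 1049 (11.3%).

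**Figure D1:**
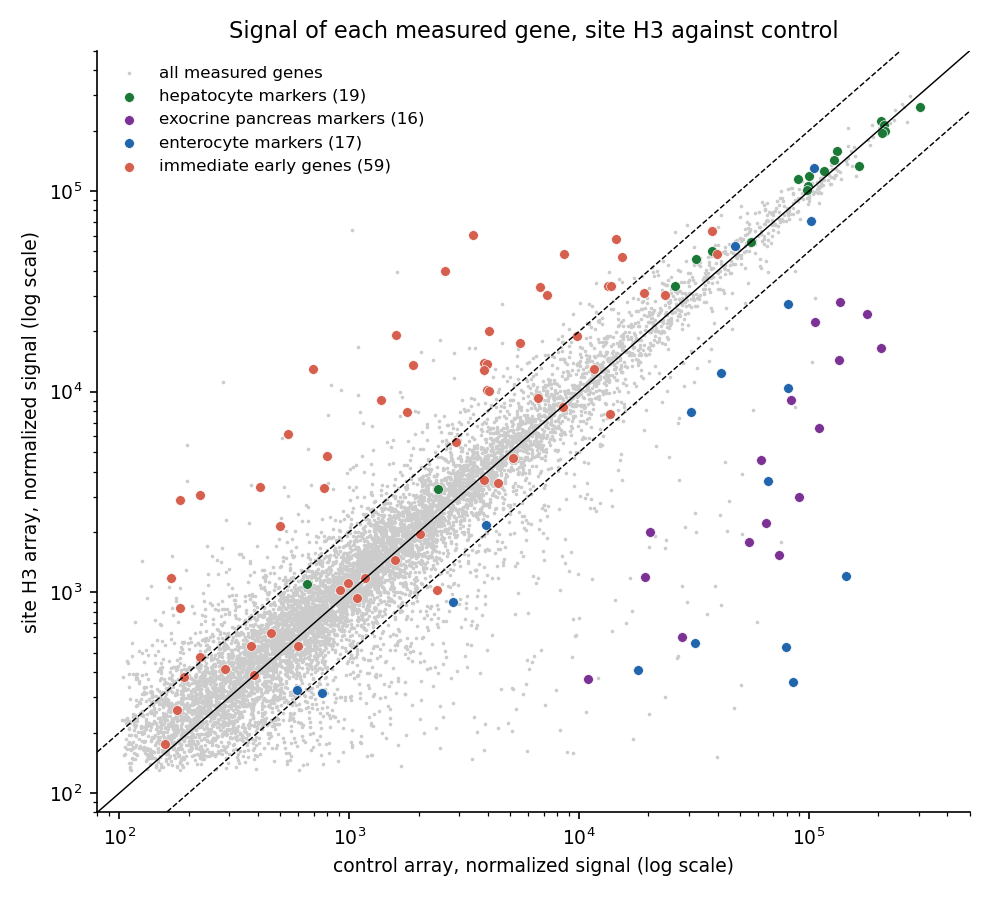
Normalized signal of each of the 9313 measured genes on the control array (horizontal, log scale) and the H3 array (vertical, log scale). The solid line marks equal signal and the dashed lines 2 fold. The 19 hepatocyte markers lie between the dashed lines, the 16 exocrine pancreas markers all lie below them, and 31 of 59 immediate early genes lie above.

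The tissue was checked first against the markers of its main cell type. All 19 measured hepatocyte markers stayed within 2 fold, with a median of 0.12. The plasma carrier transferrin, *tfa*, had a signal of 98310 in the control and 100600 at H3 (difference 0.03 ± 0.15, SD over 7 probes). The liver fatty acid binding protein *fabp10a* had 164100 and 133500 (-0.30 ± 0.08, 2 probes), the lowest of the list. At the other end stood *hnf4a*, the nuclear receptor that maintains hepatocyte identity, with 654.6 and 1104 (0.75 ± 0.18, 2 probes). Hepatocyte markers were thus at similar levels on both arrays, and the summed signal of the list was 2226000 in the control and 2283000 at H3. Such markers cannot show how much RNA of other tissues a pool held, and markers of other tissues are given below. Under 75th percentile scaling the list median was 0.54.

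The largest positive differences of the comparison were in genes of the AP-1 family. *jdp2b*, which encodes a leucine zipper protein that pairs with Jun, had a signal of 1030 in the control and 64160 at H3, a difference of 5.96 ± 0.21 and a fold of 62.3. On the other 6 site arrays *jdp2b* lay between 842.9 and 4226, so that H3 stood apart from all of them. *atf3*, a zipper protein induced by many kinds of stress, went from 281.4 to 11110 (5.30 ± 0.24). The H1 array, at 8944, was close to H3 for this gene, and the other 5 sites lay between 306.8 and 1094.

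The Jun and Fos genes themselves were higher as well. *jun* had 696.9 in the control and 12920 at H3 (4.21 ± 0.72, 3 probes), and *junba* had 2602 and 39990 (3.94 ± 0.20, 1 probe). *fosab*, the zebrafish *c-fos*, had 3447 and 60280, and its 5 probes gave differences from 2.87 to 5.38 (mean 4.13 ± 1.19). *fosl2*, a Fos relative, had 1380 and 9075 (2.72 ± 0.99, 5 probes). For all 4 of these genes H3 was the highest of the 8 arrays, and the next highest was H1 for *jun* (5376) and *fosab* (20510). A pair of further members, *fosl1a* and *jund*, were not well above background in the control and were at least 5.40-fold and 5.90-fold higher at H3.

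Among the zinc finger factors, *egr2b* had 223.5 in the control, 3068 at H3 and 112.1 to 467.2 on the other site arrays (3.78 ± 0.25). Its relatives *egr3* (182.8 and 2879, difference 3.98) and *egr1* (407.8 and 3354, 3.04) followed it. The orphan nuclear receptor gene *nr4a1* had 167.5 and 1182 (2.82), with the other sites between 136.7 and 330.4, while its relatives *nr4a3* and *nr4a2b* had differences of -0.02 and 0.01. *mycb*, which encodes a growth-promoting transcription factor, had 6728 and 33060 (2.30, 3 probes). Members of one family thus differed from each other.

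Feedback inhibitors of signalling made up another block. *errfi1a*, which encodes an inhibitor of the EGF receptor, had 507.1 in the control and 5886 at H3 (3.54 ± 0.08, 2 probes), and *spry4*, an inhibitor of FGF signalling, had 2470 and 18040 (2.87 ± 0.05, 2 probes). *dusp2*, a phosphatase that switches off MAP kinases, had 1886 and 13650 (2.85 ± 0.13, 2 probes), and *dusp1* had 3858 and 12790 (1.73). The related *dusp6* went the other way without reaching 2 fold, from 13590 to 7774 (-0.81). Inhibitors of cytokine and growth hormone receptors were higher too, with *cisha* at 1658 and 9912 (2.58 ± 0.54, 5 probes), *socs3b* at 803.3 and 4772 (2.57 ± 0.64, 3 probes) and *socs3a* at 7230 and 30240 (2.06). For *cisha* the other site arrays lay between 2229 and 4310, between the control and H3.

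Further genes that were higher act on mRNA decay or encode kinases. *btg2*, which promotes removal of poly(A) tails and restrains division, had 1591 and 19100, with probe differences of 2.1, 4.44 and 4.22. Its relative *btg1* differed by 0.29. *zfp36l1b*, whose protein binds unstable mRNAs, had 4041 and 20090 (2.31, 2 probes). The kinase genes *pim1* (542.3 and 6170, 3.51 ± 1.55), *pim2* (1787 and 7886, 2.14), *sik1* (1108 and 7944, 2.84 ± 1.74) and *sgk1* (5516 and 17550, 1.67) were all called. The wide SD of *pim1* and *sik1* came from 2 probes each, of which the dimmer had a control signal of 104.9 for *pim1* and 142.9 for *sik1*, near the lowest signals that passed the background test.

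The list of immediate early genes leaves out *jdp2b*, *atf3*, *errfi1a*, *spry4*, *cisha* and *sik1*. Of its 59 measured members 31 were higher, 1 was lower and 27 lay within 2 fold, with a median of 1.29 beside 0.11 for all genes. Of 68 listed genes with a probe, 9 were not measured on both arrays, and 3 of these (*fosl1a*, *jund* and *csrnp1b*) were higher by a bound past 2 fold. These 3 were well above background at H3 only, which fixes the direction of a bound. Of all 391 such genes 47.1% passed 2 fold. H3 was the highest of the 8 arrays for 29 of the 59 (49.2%) and the lowest for 0. For all genes these shares were 16.8% and 11.3%. The summed signal of the list was 325600 in the control, 833400 at H3, and 308500 to 571100 on the other 6 site arrays. Against the other arrays of its own slide, 29 were higher and the median was 0.99.

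The *gadd45* genes, whose proteins bind cell cycle and stress kinases, did not move as a family. Next to *gadd45aa* (501.1 and 2133, 2.09) and *gadd45bb* (183.5 and 833.4, 2.18), *gadd45ba* had 14410 and 57730 (2.0 ± 0.40, 2 probes), above the range of the other sites, 4579 to 26450. *gadd45ga* had 13280 and 33500 (1.33). *gadd45ab* was lower, with 2403 and 1027 (-1.23 ± 0.03, 2 probes), but the control was here the array that stood out, since the other 6 sites lay between 306.6 and 1347. Of the 26 measured p53 target genes 4 were higher and 1 was lower (median 0.05), beside 6.85% and 6.75% of all genes. Those 5 p53 targets were *btg2*, *gadd45aa*, *ccne2*, *tp53inp1* and *gadd45ab*. The median of the p53 list turned to -0.02 when arrays were scaled on the E1A spike-in spots and to -0.07 with the brightest probe of each gene.

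**Figure D2:**
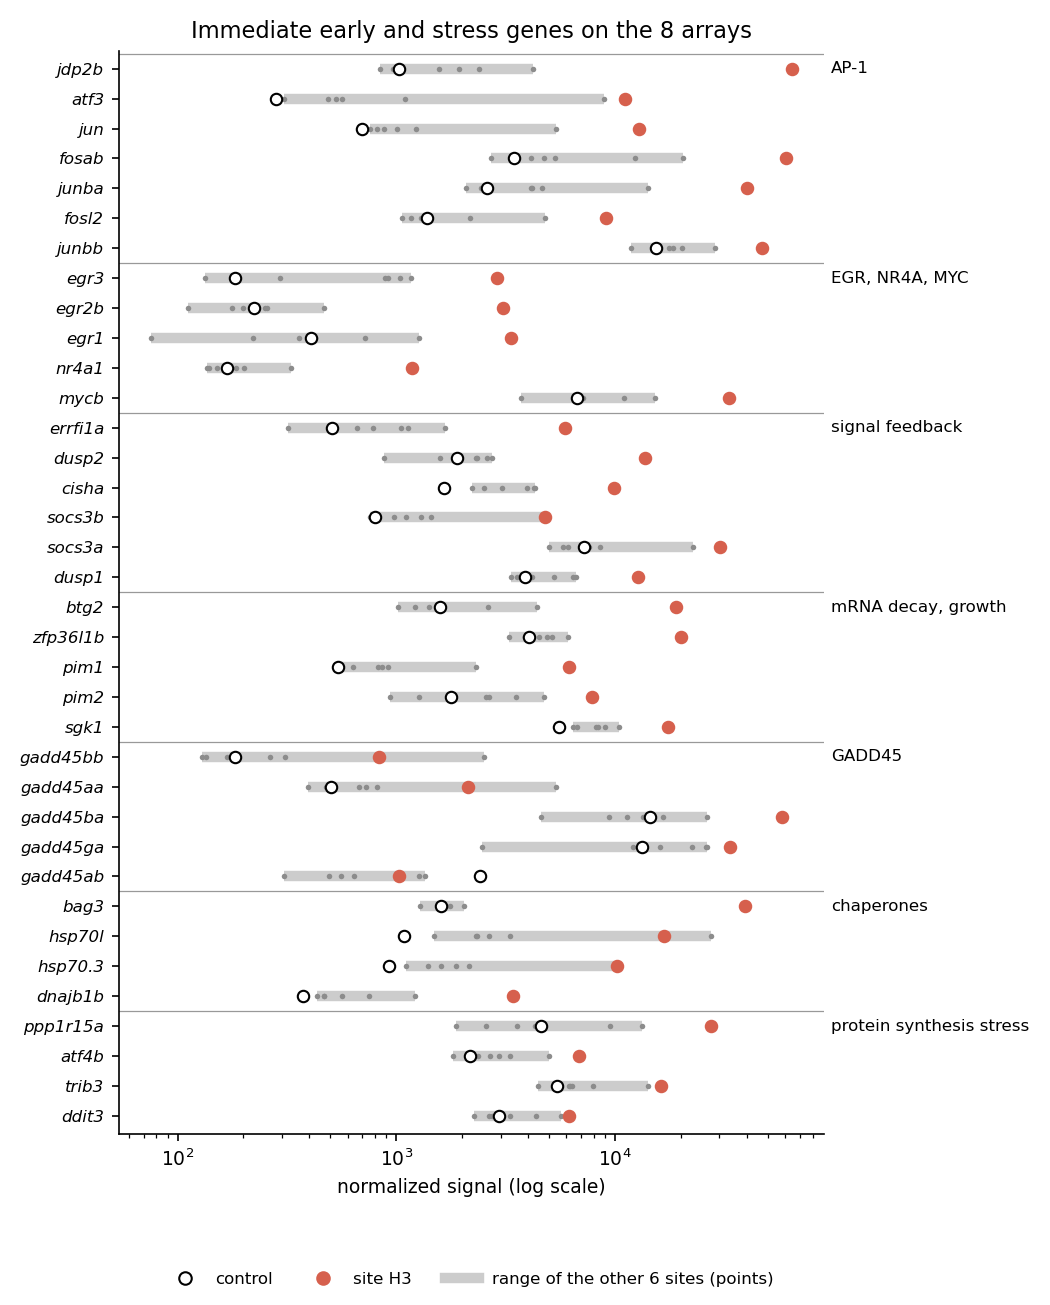
Normalized signal (horizontal, log scale) of immediate early and stress genes, grouped by role. Open circles show the control array, red circles the H3 array, and grey bars with points the other 6 site arrays; *jdp2b* (64160) and *bag3* (39330) at H3 lie farthest from all other arrays, while *hsp70l* at H3 (16740) lies below its highest site value (27560).

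The chaperone genes split in the same list. *bag3*, a partner of HSP70 that is a classic target of heat shock factor, had 1607 in the control, 39330 at H3 and 1283 to 2031 on the other site arrays, a difference of 4.61 ± 0.20 and the widest gap of any measured gene between H3 and the next array (4.27 on the log2 scale). *dnajb1b*, a co-chaperone that stimulates HSP70, had 375.3 and 3426 (3.19), with the other sites between 435 and 1212. The inducible HSP70 genes *hsp70l* (1087 and 16740, 3.94 ± 0.23, 2 probes) and *hsp70.3* (921.7 and 10160, 3.46 ± 2.26, 3 probes) were higher as well. Their sequences are near-identical, so their probes may bind both transcripts and the values of the pair are uncertain for each gene alone.

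Over the whole heat shock list, with *bag3* included, 6 of 44 measured genes were higher and 2 lower, beside 6.85% and 6.75% of all genes. Its median was 0.13, beside 0.11 for all genes. The constitutive members *hspa8* (16720 and 18280, 0.13 ± 0.17, 11 probes) and *hsp90ab1* (46560 and 52920, 0.18 ± 0.15, 7 probes) lay close to the median of all genes. *hsf2*, which encodes a heat shock factor, was lower, from 4394 to 1796 (-1.29).

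Genes of the integrated stress response, which runs through ATF4, were called in both directions. *ppp1r15a*, whose protein restores protein synthesis, had 4605 and 27470 (2.58 ± 0.36, 2 probes), and the other sites lay between 1875 and 13320. *atf4b* (2175 and 6872, 1.66), *trib3* (5417 and 16290, 1.59) and *ddit3*, which encodes CHOP (2944 and 6174, 1.07), were the highest of the 8 arrays, while *atf4a* differed by 0.53. *cth*, the enzyme that makes cysteine, was lower, from 8387 to 1517 (-2.47 ± 0.93, 2 probes), as was the amino acid transporter chain *slc3a2a*, from 8640 to 1840 (-2.23). In all 7 of 31 genes of the integrated stress response were higher and 2 lower (median 0.35). The unfolded protein response of the endoplasmic reticulum had 3 of 52 genes higher (*atf4b*, *ddit3* and *ssr1*) and 0 lower (median 0.11). Of all genes 6.85% were higher and 6.75% lower.

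Genes of insulin and IGF signalling leaned upward, with 10 of 32 higher, 2 lower and a median of 0.36. The shares of all genes were 6.85% higher and 6.75% lower. *foxo1a*, the transcription factor that insulin holds inactive, had 125.9 in the control and 1425 at H3 (3.50 ± 0.32, 1 probe), against 98.51 to 933.7 at the other sites. Its control signal was near the lowest that passed the background test, 100.8. The relative *foxo1b* was not well above background at H3 and at least 2.30-fold lower. *irs2a*, which encodes an adaptor of the insulin receptor, had 377 and 959.4 (1.35), and the other 6 sites lay below the control, between 102.1 and 269.1. *igf1*, the growth factor that liver makes under growth hormone, had 6038 and 14040 (1.22), above 3633 to 7228 at the other sites. *igf2a* (17330 and 36700, 1.08) and *igf2b* (8988 and 20480, 1.19) were also the highest of the 8 arrays. By contrast *igfbp1a*, an IGF binding protein that fasting and low oxygen raise, had 148100 and 206800 (0.48 ± 0.15, 3 probes).

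The pair that was lower among the 32 genes measured on both arrays, *ins* and *sst1.1*, are hormone genes of the pancreatic islet. *ins* had 27180 in the control and 7352 at H3 (-1.89 ± 0.15, 2 probes), and the other sites ran from 1749 to 50690, so that H3 lay inside their range. Of 9 measured islet markers 7 were lower and 0 higher (median -1.59), among them *sst2* (24700 and 4752, -2.38) and *scg5* (3548 and 663.1, -2.42). The markers of the exocrine pancreas moved the same way, as given below, and their part in the difference of *ins* was not tested.

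In fat metabolism, synthesis and storage genes were higher more often than lower, 9 of 29 against 2 (median 0.33). Among all genes these shares were 6.85% and 6.75%. *plin2*, which coats lipid droplets, had 810 in the control and 7653 at H3 (3.24 ± 1.25, 2 probes), second to a site at 10680. *aclya*, which makes acetyl-CoA from citrate in the cytosol, had 4601 and 17510 (1.93 ± 0.24, 2 probes), and *slc25a1a*, the carrier that brings citrate out of mitochondria, had 464 and 1340 (1.53). *fitm2* (449.3 and 1120, 1.32) and *dgat2* (2725 and 6189, 1.18), both needed to build lipid droplets, were the highest of the 8 arrays. The master regulator gene *srebf1* differed by 0.06.

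Of 57 measured genes of fatty acid oxidation and PPAR signalling 5 were higher and 2 lower, which is near the shares of all genes (6.85% and 6.75%). A positive difference was seen in 48 of the 57, beside 59.5% of all genes, and the median was 0.38. *slc27a6*, a fatty acid transporter, had 1068 and 4300 (2.01), *phyh* of the peroxisome had 665.8 and 1776 (1.42), and *etfdh*, which passes electrons from oxidation to the respiratory chain, had 3964 and 10010 (1.34). The 2 that were lower, *fabp1b.1* (81120 and 10420, -2.96) and *fabp1a* (664.6 and 237.4, -1.49), encode fatty acid binding proteins, of which *fabp1b.1* is also on the enterocyte list.

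Lipoprotein genes held values at both extremes. *lipg*, endothelial lipase, had 1088 in the control and 9574 at H3 (3.14 ± 0.21), and *ldlra*, the LDL receptor, had 1698 and 9405 (2.47 ± 0.21), with other sites between 1156 and 2792. *scarb1*, the HDL receptor, had 6020 and 414.3 (-3.86), the lowest of the 8 arrays. *apoea* had 59610 and 714.7 (-6.38), but other sites ran from 21.44 to 55860, and the enterocyte markers moved with it. Of 31 measured genes 3 were higher and 4 lower (median 0.12), beside 6.85% and 6.75% of all genes.

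Glucose metabolism was lower in glycolysis and higher in glycogen and glucose output, at the level of single genes. *ldha*, lactate dehydrogenase, had 6650 and 1175 (-2.50 ± 0.45, 2 probes), *aldoaa* had 15410 and 3645 (-2.08 ± 0.25, 3 probes), and *pfkfb4a*, whose product sets the rate of glycolysis, had 5360 and 1407 (-1.93 ± 0.39, 2 probes). *gyg2*, which primes glycogen, had 661.1 and 5187 (2.97), although 928.7 to 4240 at the other sites left the control as the lowest array. *g6pc1a.1*, the last enzyme of glucose release, had 15410 and 35180 (1.19), and its transporter *slc37a4a* had 1703 and 3836 (1.17). Over the list 4 of 51 genes were higher and 6 lower, beside 6.85% and 6.75% of all genes. The list median of 0.04 turned to -0.01 with normexp background correction.

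**Figure D3:**
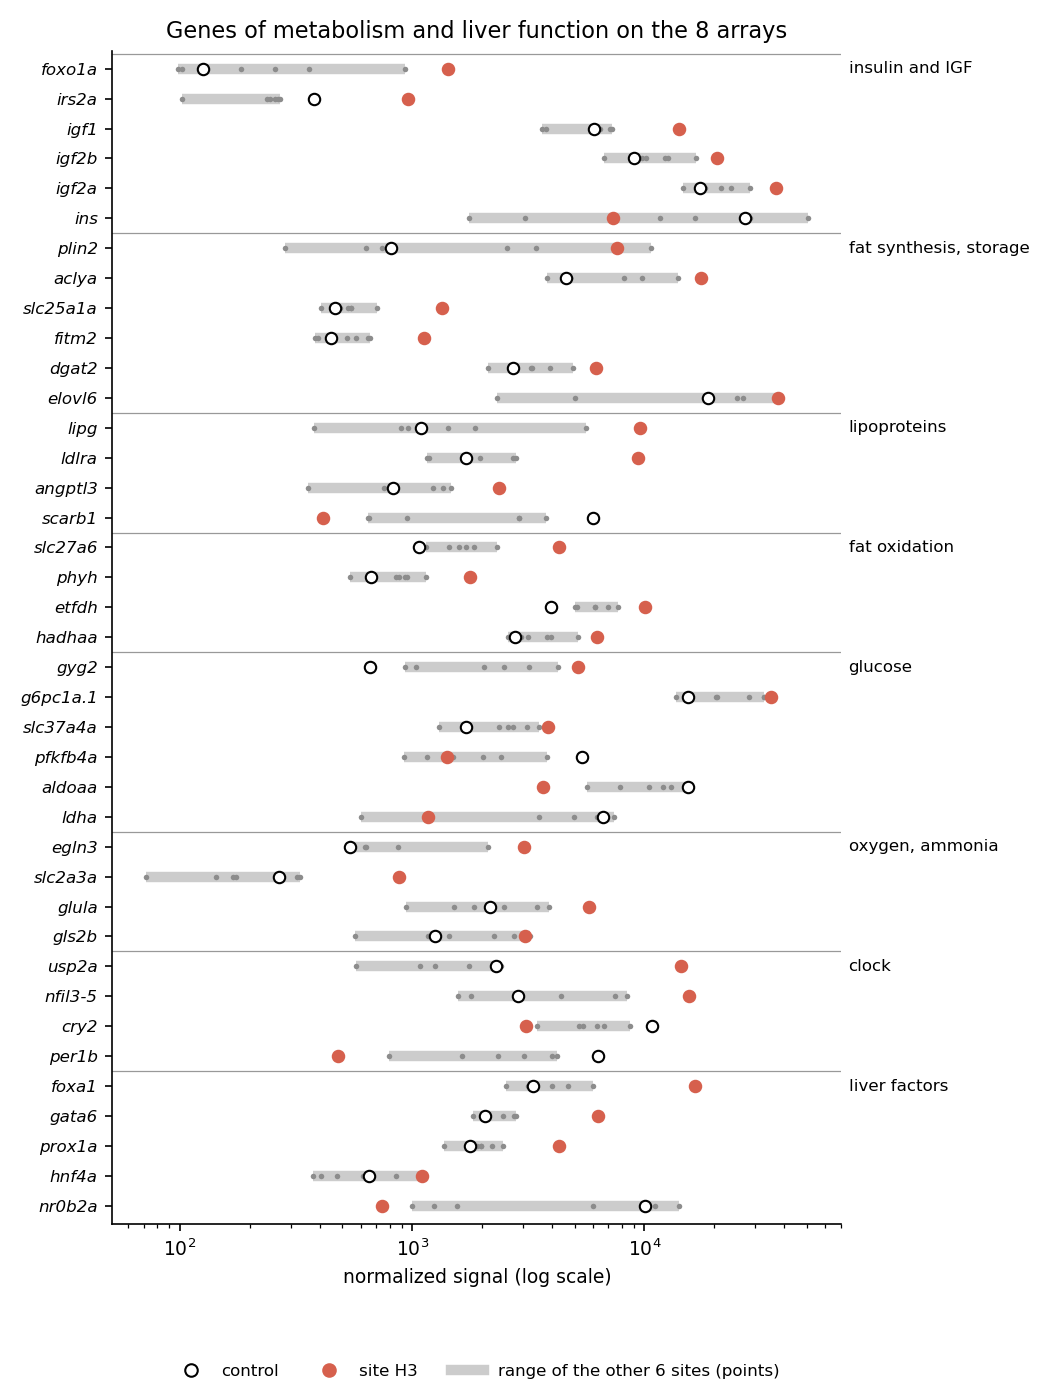
Normalized signal (horizontal, log scale) of genes of metabolism and liver function, grouped by role, with symbols as in the plot of early genes. For *foxa1*, *usp2a* and *ldlra* the H3 circle (16470, 14330 and 9405) lies clear of all other arrays, while for *ins* and *ldha* it lies inside the range of the other sites.

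Since H3 had the lowest oxygen in the river, a list of 40 measured hypoxia genes was examined. It held 8 higher and 4 lower genes, beside 6.85% and 6.75% of all genes, and had a median of 0.24. The highest gene of the list was *errfi1a* (3.54), given above as a feedback inhibitor, which also led the glucocorticoid list. *egln3*, an oxygen-sensing hydroxylase that hypoxia itself induces, had 541 in the control, 3016 at H3 (2.48 ± 0.74, 2 probes) and 528.8 to 2121 at the other sites. *slc2a3a*, a glucose transporter, had 267.6 and 876.9 (1.71), and *slc2a1a* was not well above background in the control and at least 4.62-fold higher. By the same kind of bound *bnip3* was at least 2.37-fold higher. In the other direction, *pfkfb3* had 1419 in the control, was not well above background at H3 and was at least 10.6-fold lower. *epoa*, erythropoietin, had 184.1 and 502.6 (1.45 ± 0.27), near the floor of detection. The glycolytic genes *ldha* and *pfkfb4a*, on the same list, were lower, as given above, and *vegfaa* differed by -0.15.

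The list for ammonia, glutamine and the urea cycle had 3 of 27 genes higher and 2 lower. Its median was 0.06, and of all genes 6.85% were higher and 6.75% lower. *glula*, glutamine synthetase, which binds ammonia to glutamate, had 2170 and 5775 (1.41 ± 0.38, 2 probes), with 944.5 to 3883 at the other sites. *gls2b*, liver glutaminase, which runs the reverse step, had 1250 and 3056 (1.29 ± 0.23), just below the highest site at 3213. The difference of *glula* was 0.75 against the other arrays of the H3 slide, so that it passed 2 fold against the control only.

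*cyp1a*, the classic target of the aryl hydrocarbon receptor, had 7167 and 10850 (0.60 ± 0.37, 3 probes). Of 9 measured genes on the list of this receptor, its partners and its targets, 1 was higher and 1 lower. A positive difference was seen in 7 of the 9, beside 59.5% of all genes. The list median was 0.58, beside 0.11 for all genes. The higher gene, *arnt*, encodes a partner of the receptor and had 121.9 and 283.5, with the control near the lowest detected signal, 100.8. The lower gene, the sulfotransferase *sult6b1*, had 9640 in the control, 612 at H3 (-3.98 ± 0.23, 2 probes) and 2347 to 10630 elsewhere. *cyp1c2*, on the same list, was not well above background at H3 and at least 2.35-fold lower. Of 32 cytochrome P450 genes of families 2, 3 and 4, 3 were higher and 5 lower, beside 6.85% and 6.75% of all genes, including *cyp2k16* (2251 and 421.4, -2.42) and *cyp2aa4* (3378 and 687.6, -2.30). *cyp2aa4* turned to 1.21 against the other arrays of the H3 slide. None of the 30 measured Nrf2 targets, genes of the antioxidant defence, was higher, and 4 were lower (*pgd*, *prdx1*, *keap1a* and *abcc4*, -1.08 to -1.46). Against the other arrays of the H3 slide 1 of the 30 was higher and 2 were lower, and *abcc4* differed by -0.43. *hmox1a* had 6636 and 3799 (-0.80). *gpx1b*, a glutathione peroxidase, had 41320 and 865.3 (-5.58 ± 0.21), the lowest value of a separate list of superoxide dismutases, catalase and peroxidases. Of the 18 measured genes of that list 1 was higher (2.08) and 3 were lower, with a median of -0.08.

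Vitellogenin is the egg yolk precursor that estrogen induces in male liver. The 5 measured genes *vtg2*, *vtg4*, *vtg5*, *vtg6* and *vtg7* had differences from 0.19 to 0.83 and did not reach 2 fold. Their sequences are near-identical, so their values are not independent. *esr2b*, an estrogen receptor, had 4137 and 8417 (1.02 ± 0.24, 2 probes), the only gene called of 12 measured in the list of vitellogenins and estrogen receptors. All 12 had a positive difference, as did 59.5% of all measured genes. H3 was the highest of the 8 arrays for 7 of the 12 (58.3%), beside 16.8% of all genes. The summed signal of the list was 51890 in the control, 80150 at H3 and 42270 to 53720 at the other sites. Of genes dim on 1 array, *gper1*, a membrane receptor for estrogen, was at least 6.03-fold lower and *cyp19a1b*, an aromatase, at least 2.07-fold higher. For *cyp19a1b* only 1 of its 5 probes was well above background at H3, with a signal of 208.8.

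Of 27 measured genes of the glucocorticoid response 10 were higher, 2 lower and 15 within 2 fold, with a median of 0.48. Among all genes 6.85% were higher and 6.75% lower. Several of the 27 are also immediate early genes. *zbtb16a*, a zinc finger repressor, had 1147 and 7006 (2.61 ± 0.90, 3 probes), with the other sites between 825.4 and 2194. *klf9* had 3981 and 10230 (1.36). The direct targets *fkbp5* (5083 and 9040, 0.83 ± 0.31) and *tsc22d3* (9329 and 7149, -0.38 ± 0.28), did not reach 2 fold.

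Of 37 measured clock genes 5 were higher and 5 lower, beside 6.85% and 6.75% of all genes. The median was -0.11, which turned to 0.12 with centring on the slide. *per1b*, a repressor of the clock that light and stress also drive, had 6338 in the control and 480.7 at H3 (-3.72 ± 0.21). The other sites lay between 792.6 and 4218, so that the control was the highest of the 8 arrays and H3 the lowest. *cry2* had the same order, 10830 and 3102 (-1.80). *usp2a*, a deubiquitinase gene under clock control, had 2301 and 14330 (2.64 ± 0.20), against 571.8 to 2422 elsewhere, and *nfil3-5*, a zipper repressor, had 2851 and 15520 (2.44). *bmal1b*, an activator of the clock, was not well above background in the control and at least 7.03-fold higher. The same held for *nr1d4a* (at least 4.38-fold) and *cry3b* (at least 2.66-fold). *csnk1e* went the other way, with 1302 in the control, no signal well above background at H3 and a bound of at least 10.5-fold lower. The hour of dissection was not given in the sources used here, and its part in these differences was not tested.

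Transcription factors of the liver were higher with 9 of 37 genes against 2 lower, and their median of 0.68 was above that of all genes. Among all genes 6.85% were higher and 6.75% lower. *foxa1*, a pioneer factor that opens chromatin in liver and gut, had 3329 and 16470 (2.31 ± 0.75, 3 probes), with the other sites between 2524 and 6013. *gata6* had 2067 and 6291 (1.61 ± 0.85, 3 probes), and *prox1a* had 1773 and 4296 (1.28). The relative *foxa2* differed by 0.21. *nr0b2a*, which encodes SHP, the repressor that bile acids induce, had 10010 and 745 (-3.75), the lowest of the 8 arrays. *cyp7a1*, the rate-limiting enzyme of bile acid synthesis, had 4981 and 1956 (-1.35), and *fgfr4*, the receptor that carries the bile acid signal from the gut, had 3101 and 9103 (1.55).

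Lists of secreted liver proteins differed from each other. Of 25 genes of clotting 2 were higher and 0 lower (median 0.36), of 29 complement genes 1 was higher and 2 lower (0.21), and of 32 acute phase and inflammation genes 5 were higher and 5 lower (0.06), where 13.6% of all genes were called. The acute phase list ran from *crp6* at -3.17 to *socs3b* at 2.57. The fibrinogen chain *fgb* had 89370 and 115000 (0.36), and hepcidin, *hamp*, had 53440 and 70350 (0.40). *il1b* reached 2 fold at the threshold, with 490.5 and 983.7 (1.00). None of 86 cytosolic ribosomal protein genes and 1 of 80 respiratory chain genes differed 2 fold, with medians of -0.08 and -0.15. The ribosomal median turned to 0.25 with 75th percentile scaling and with the authors' values, and to 0.20 with scaling on the E1A spots.

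Genes of antiviral defence and antigen presentation were lower more often than higher. Of 21 measured interferon response genes 1 was higher and 6 lower (median -0.46), beside 6.85% and 6.75% of all genes. *stat1b*, which carries the interferon signal, had 13940 in the control and 642.9 at H3 (-4.44 ± 0.21), and *ifi27.2* had 23730 and 1665 (-3.83 ± 0.29, 4 probes). *isg15*, a ubiquitin-like protein induced by interferon, had 13720 and 3226 (-2.09). H3 was the lowest of the 8 arrays for these 3 genes. In antigen presentation 1 of 22 genes was higher and 6 were lower (median -0.59), among them the immunoproteasome subunits *psmb10* (7208 and 1859, -1.96), *psmb13a* (3978 and 1224, -1.70) and *psmb9a* (9485 and 3393, -1.48).

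Markers of white blood cells moved alongside. Of 20 measured markers of neutrophils and macrophages 14 were lower and 0 higher (median -1.39). H3 was the lowest of the 8 arrays for 15 of the 20 (75%), beside 11.3% of all genes. *rac2* had 3790 and 768.2 (-2.30 ± 0.04, 2 probes), *coro1a* 3006 and 879.6 (-1.77) and *mpeg1.1* 3021 and 926.3 (-1.71). The neutrophil granule genes *mpx* (2727 and 2510) and *lyz* (1454 and 1586) differed by -0.12 and 0.12. The summed signal of the list was 145300 in the control, 62240 at H3 and 110100 to 201000 at the other sites. The 3 measured lymphocyte markers, *zap70*, *il2rb* and *cd247*, were all lower (-1.19 to -2.05), and 3 of 10 red cell markers were lower, with *hbba1* at 43500 and 26260 (-0.73). The part of these cells in the interferon and antigen presentation values was not tested.

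**Figure D4:**
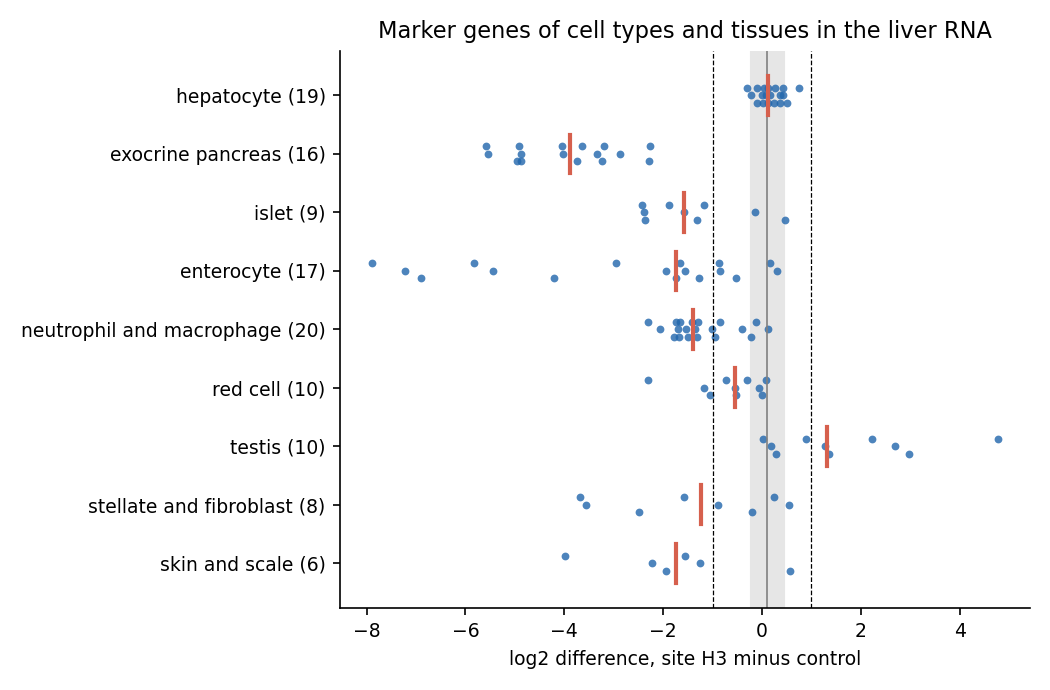
Differences between H3 and control (horizontal, log2) for measured markers of several cell types and tissues. Blue points are genes, red bars list medians, the grey band the range between the quartiles of all measured genes and dashed lines 2 fold; the 16 exocrine pancreas markers lie between -5.58 and -2.26 and the hepatocyte markers between -0.30 and 0.75.

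The largest negative differences were in genes of the pancreas and the gut. In zebrafish, pancreatic tissue lies against the liver and the intestine. All 16 measured markers of the exocrine pancreas, of 17 with a probe, were lower (median -3.89). Trypsin, *prss1*, had 179200 in the control and 24400 at H3 (-2.88 ± 0.24, 2 probes), the carboxypeptidase *cpa1* had 73700 and 1538 (-5.58 ± 0.01, 2 probes), and the lipase *cel.1* had 27950 and 600.7 (-5.54 ± 1.51, 2 probes). Many of these enzymes belong to families of near-identical genes, so single values are uncertain. The summed signal of the list was 1380000 in the control, 138300 at H3, a ratio of 9.98, and between 298700 and 1158000 on the other sites. All other sites thus lay above H3 and below the control.

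Of the marker lists, that of the enterocyte held the most extreme values. Of 17 measured markers 12 were lower and 0 higher (median -1.73). Of the 7 that were not measured on both arrays, 6 were lower by a bound past 2 fold. These 6 were well above background in the control only, which fixes the direction of a bound. Of all 783 such genes 41.4% passed 2 fold. H3 was the lowest of the 8 arrays for 3 of the 17 (17.6%), beside 11.3% of all genes. The summed signal of the list was 921400 in the control and 322700 at H3. At the other sites it was 223700 to 890300, so that H3 lay inside their range and the control above it. The abundant *apoa4b.1* had 105300 and 130400 (0.31). The chitinase genes *chia.1* (84970 and 356.4, -7.90 ± 0.53), *chia.2* (79460 and 534.5, -7.22 ± 0.48) and *chia.3* (144300 and 1209, -6.90 ± 0.15), each with 2 probes, are near-identical copies. *plac8.1*, which is not on this list, had 39810 and 151.5 (-8.04 ± 0.13, 2 probes, or 262.7-fold). This was the largest negative difference of all measured genes. Close to it were *tm4sf21b* (46970 and 264.8, -7.47) and *tcnba*, which encodes a vitamin B12 carrier (50590 and 343.8, -7.20). At sites D and X *plac8.1* was as low as at H3, with 163.6 and 168.2, and at H5 it was as high as in the control, with 49450.

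**Figure D5:**
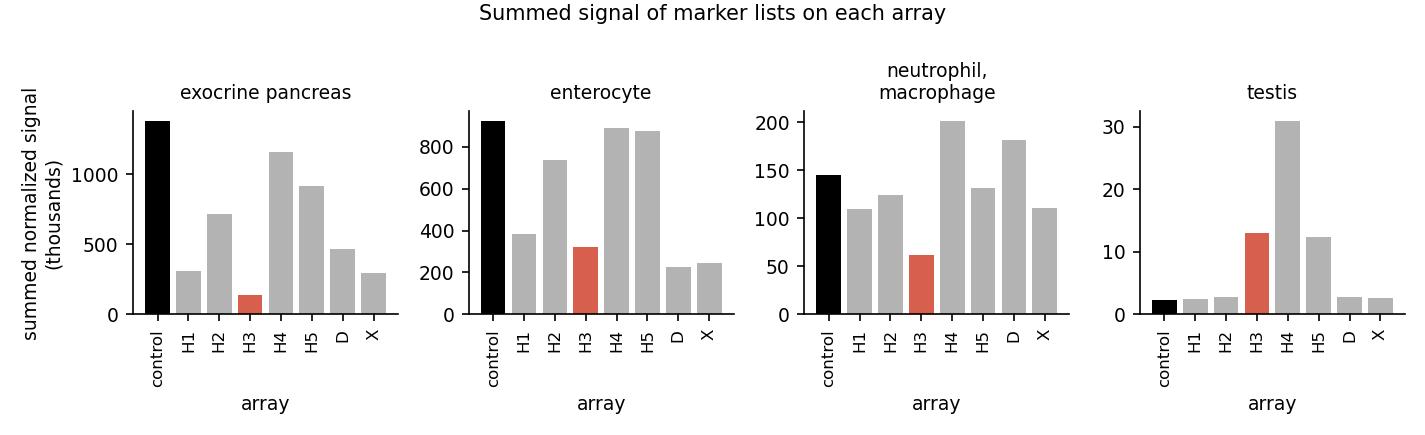
Summed normalized signal (vertical, each panel with its own scale from 0) of 4 marker lists on each of the 8 arrays. The control bar (black) is the highest of all for the exocrine pancreas and the enterocyte. The H3 bar (red) is the lowest of all for the exocrine pancreas (138300) and for neutrophils and macrophages (62240), and stands with H4 and H5 above the other arrays for testis (13030 at H3 against 2328 in the control).

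Genes that were well above background in the control only have a bound and no measured fold. Of 783 such genes 324 were lower by a bound of at least 2 fold (41.4%). The fatty acid transporter *cd36*, at 32430 in the control, was at least 261-fold lower at H3. The kidney and gut carrier *slc13a2* (20230 in the control) was at least 163-fold lower, the peptide transporter *slc15a1b* (16860) at least 136-fold, and the brush border protease gene *mep1a.1* (16340) at least 131.5-fold. *mbl2*, a lectin of the complement system, was at least 146.5-fold lower, from 18200.

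The smooth muscle genes *tagln* (31800 and 2480, -3.68) and *acta2* (20030 and 1689, -3.57) led 4 of 8 measured stellate and fibroblast markers that were lower (median -1.23). Of 6 skin and scale markers 5 were lower, with *krt4* at 9574 and 606.3, whose 9 probes gave differences from -5.34 to 0.27. The 4 measured endothelial markers stayed within 2 fold.

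Testis genes were the only tissue list that was higher, with 6 of 10 markers past 2 fold, 0 lower and a median of 1.32. *insl3*, a hormone of the Leydig cell, had 197.5 in the control and 5434 at H3 (4.78 ± 0.27), and *sycp1*, a protein of meiotic chromosomes, had 291.9 and 2297 (2.98 ± 0.54, 4 probes). *gsdf*, a growth factor of the somatic gonad, was not well above background in the control and at least 17.4-fold higher. Against the other arrays of the H3 slide the list median was 0.12 over these 10 genes, or -0.02 over the list members well above background by that comparison's own filter, and the difference of *insl3* was -0.21, with *insl3* at 12050 on H4 and 7629 on H5. The other 5 arrays had *insl3* between 56.01 and 462.5. *dmrt1* (263.8 and 268) and *dazl* (232.8 and 262.2) did not differ by 2 fold.

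Genes well above background at H3 only numbered 391, of which 184 were higher by a bound of at least 2 fold (47.1%). After *gsdf*, the largest bounds among genes with a name were those of *dnai2a*, a dynein chain of motile cilia (at least 10.6-fold), *sema3bl* (at least 10.1-fold), *ascl1a* (at least 8.62-fold), *kcnj21* (at least 8.56-fold) and *wnt8-2* (at least 8.48-fold). Each rested on 1 bright probe, and at H3 their signals lay between 854.5 and 1071.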

How the data were processed

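Liver RNA of 8 pools, each of 5 male zebrafish, was hybridized to one-colour Agilent zebrafish arrays, 1 array for each of 7 sites and the control. The deposited scanner files hold intensity values per spot, background-subtracted by Agilent Feature Extraction (10.7 in the submitters' processing notes, 11.5.1.1 in the file headers), and other values per spot that mark background, saturation and outliers as the authors deposited them. A table of log2 values deposited by the authors holds the processed signal minus an offset near each array's 75th percentile, while the methods name quantile normalization, and it served as an alternative.

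Here the log2 processed signal was quantile normalized over the 8 arrays, and spots of one probe were averaged. Probes well above background on both arrays and not marked were kept. Genes were named from RefSeq accessions (26094 of 27655 such probes matched), and a gene value is the mean over its probes. A gene well above background on 1 array only was given as a bound. The bound was taken against the dim probe's own signal on the other array or that array's lowest signal well above background, whichever was higher. Those lowest signals were 100.8 for the control and 124.2 for H3. No test was possible with 1 array a side, and the number of arrays limits the precision. The processed signal at the 75th percentile was 1361.8 on the control array and 1139.5 on the H3 array, 62.9% and 59.1% of probes were well above background, and no spot was saturated. All mapped columns were used or named, and 0 were left unmapped.

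The members and the 56 gene lists were chosen with earlier results of these data known. Genes were named by a rule that takes the 15 largest differences in each direction, up to 4 largest and the 3 most abundant genes of each list, the 8 largest bounds and the 10 genes farthest outside the other 7 arrays in each direction, and *gadd45aa*, *gadd45bb* and *ins*. Other genes named in the text were chosen after their values were seen. The 12 alternatives were 75th percentile scaling, the authors' values, normexp (offset 50, median spot and local background signal), 2 other filters, marked probes kept, centring on the slide, 2 other references, a 3 fold threshold, the brightest probe of a gene, and scaling on E1A spike-in spots. The scripts were tested on simulated data. Python 3.11.15, numpy 2.4.6, pandas 2.3.3, matplotlib 3.10.9, R 4.3.3 and limma 3.58.1 were used. Some genes are not reported here.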

Additional observations from a re-analysis of the deposited data

How the results depend on the processing

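No paired analysis was possible because each group had 1 array and the groups shared only replicate number 1. The filter on dim probes moved the counts most. With probes well above background on at least 1 array, 6935 probes differed 2 fold (3265 higher, 3670 lower) and 2404 genes (1060 higher, 1344 lower), and with no filter 9434 probes (4759 higher, 4675 lower) and 2556 genes (1192 higher, 1364 lower). Both of these settings gave 19 called enterocyte markers instead of 12. Against the median of the other 6 site arrays, 2392 probes (914 lower) and 808 genes (336 lower) differed 2 fold. At 3 fold, 1410 probes were called (611 higher, 799 lower). With normexp, 1203 probes and 392 genes were higher. The share of called probes that were higher was 54.7% in the main setting, 43.3% at 3 fold, and 47.1% to 61.8% under the alternatives at 2 fold. Of 203 named genes past 2 fold, 143 (against the other 6 sites) to 203 stayed past it. The sign turned for *insl3* (-0.24 with centring on the slide, -0.21 against the other 3 arrays of the H3 slide), *cldni* (0.022) and *tfr1b* (-0.038) with centring on the slide, *cyp2aa4* (1.21) and *nos2a* (0.15) against the other 3 arrays of the H3 slide, *gadd45ab* (0.78) and *slc6a19a.1* (2.17) against the other 6 sites, *hbba2* (0.32 with either looser filter) and *nfil3-6* (-0.0095 with the brightest probe). The cause was not tested. The count of called immediate early genes ran from 29 to 37. Scaling on the E1A spots was chosen after seeing the data. Depth limited the comparison to genes with a signal over background, 15 times background at the median in the control and 12.32 at H3.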

Other observations

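Some genes not given above differed strongly from the control. *arhgef7a*, which encodes an exchange factor for small GTPases, had a normalized signal of 713.7 at H3 and 117.1 in the control (2.61 on the log2 scale), and the other 6 sites lay between 20.67 and 85.05, below the signals that count as detected. *wipf1a*, whose protein acts on actin filaments, had 392.9 and 109.6 (1.84), with the other sites between 21.13 and 96.31. *adcyap1b*, a neuropeptide gene, had 3584 and 197.6 (4.18 ± 0.85, SD over 2 probes), and 1 other site reached 1913. *rn7sk*, a small nuclear RNA that restrains transcription elongation, had 10790 and 836.1 (3.69), but 1 other site reached 10810. On the low side *gig2i*, an interferon-inducible gene of fish, had 310.6 at H3 and 5702 in the control (-4.20), with the other sites between 995.7 and 4319. *slc30a10*, a metal exporter in mammals, had 162.4 and 5899 (-5.18), with 474.6 to 3072 elsewhere.

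Genes of cell division and DNA replication were lower more often than higher, 7 of 55 against 1, with a median of -0.29. Of all genes 6.75% were lower and 6.85% higher. By bounds *tyms* and *orc1* were at least 3.18-fold and 2.43-fold lower, and *aurka* at least 3.04-fold higher. The summed signal of the list was 44950 in the control and 35570 at H3, inside the range of the other sites, 30010 to 70460. The 7 measured genes that were lower included *mcm5* (-1.90), *mcm6* (-1.73) and *mcm2* (-1.43), subunits of the helicase that opens DNA for replication, and *ccnd2a* (-2.12), a cyclin. Among amino acid transporters 8 of 26 were lower and 1 higher, beside 6.75% and 6.85% of all genes, led by *slc43a2b* (-4.33) and *slc7a7* (-4.07), while the list median was 0.12. That median turned to -0.02 when marked probes were kept. Enterocyte markers were lower too (12 of 17), and their part in these values was not tested.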
